A study of Arabidopsis thaliana with 4 samples.

Results

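The auxin response factors (ARFs) are plant DNA-binding proteins that read the auxin signal, and 10 ARF genes are described here in dark-grown *Arabidopsis thaliana* seedlings after ethylene or air. They were chosen by locus as ARF1 to ARF8, ARF10 and ARF19, which are 10 of the 23 ARF genes searched for and lie in a table of 32878 rows. Of these, 9 stood in a row of their own. ARF3 stood in a row merged with the neighbouring gene AT2G33855, and its values are kept apart. The reference annotation gives each of the 10 loci as an ARF gene, with ARF3, ARF5 and ARF7 under their other symbols ETT, MP and NPH4.

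The ethylene group was 2 RNA-seq libraries of whole *daz3 tree1* seedlings, treated for 4 hours with 10 ppm ethylene in hydrocarbon-free air. The air group was 2 libraries of the same double mutant, treated for the same 4 hours with hydrocarbon-free air. Both groups carry mutations in DAZ3 and TREE1 in the Columbia (COL) background, were 3 days old and had been grown in darkness at 24 ºC. No wild type was used here, and the values describe the mutant alone. The authors' table gives 1 value per group in FPKM, which scales fragments by transcript length and by library size. No value of a single library was used, so no SD is given and the depth per library is unknown. The labels do not say whether libraries of 1 group came from separate cultures, so the deposited p-values may measure technical spread. Of the mutated genes, TREE1 (AT4G35610) had 0.327 FPKM with ethylene and was listed at 0 in air, and DAZ3 (AT4G35700) was listed at 0 in either group. PORA, a chlorophyll synthesis enzyme of dark-grown seedlings, had 1146.7 FPKM with ethylene and 1873.0 FPKM in air. PORA was called lower with ethylene (log2 fold change -0.71, the authors' deposited table, Cuffdiff, Benjamini-Hochberg adjusted p = 0.00227). The root markers PYK10 and CASP1 had 3867.6 and 176.3 FPKM with ethylene, against 4093.2 and 170.2 FPKM in air. STM, of the shoot apex, had 6.80 FPKM with ethylene and 5.14 FPKM in air. The flower genes AP1, AP3 and PI were listed at 0 with ethylene, and at 0, 0.136 and 0.0756 FPKM in air.

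ARF proteins bind auxin response elements in promoters. At low auxin, Aux/IAA proteins bind ARFs and recruit TOPLESS co-repressors, and auxin removes the Aux/IAA proteins through the TIR1/AFB receptors. ARF5, ARF6, ARF7, ARF8 and ARF19 have a glutamine-rich middle region and act as activators, while the other members are classed as repressors. Several ARF transcripts are cut by small RNAs: miR167 acts on ARF6 and ARF8, miR160 on ARF10, ARF16 and ARF17, and short RNAs made from TAS3 on ARF2, ARF3 and ARF4. In seedlings, ARFs act in hypocotyl growth, the apical hook and root branching, where auxin and ethylene act together.

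ARF6 and ARF8, the pair of miR167 targets, were the members called higher with ethylene, so their target sites are shown with the small RNAs. Mature miRNAs were read from the RefSeq annotation of TAIR10.1 in DNA letters, 5′ to 3′, with bases 2 to 8, the seed, in capitals.
miR167a-5p: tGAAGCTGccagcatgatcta
miR167c-5p: tAAGCTGCcagcatgatcttg
miR167d: tGAAGCTGccagcatgatctgg
miR160a-5p: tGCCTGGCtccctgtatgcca
miR167b has the same sequence as miR167a-5p, and miR160b and miR160c-5p the same as miR160a-5p. The seed of miR167a, miR167b and miR167d is the same 7 bases, and in miR167c the annotated sequence is shifted.

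The best pairing of miR167a-5p or miR160a-5p with each ARF transcript was searched without gaps in the longest annotated transcript. The sites below are from the coding sequence, 5′ to 3′ on the gene's strand, and capitals mark bases that do not form a Watson-Crick pair with the miRNA.
ARF6 site for miR167a-5p: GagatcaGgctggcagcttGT
ARF8 site for miR167a-5p: tagatcaGgctggcagcttGT
ARF10 site for miR160a-5p: AggAatacagggagccaggca
ARF16 site for miR160a-5p: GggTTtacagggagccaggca
ARF17 site for miR160a-5p: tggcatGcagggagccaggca
The ARF6 site lies at chr1:10686478-10686498 on the minus strand, in exon 13 of 14, and has 4 unpaired positions of 21. The ARF8 site lies at chr5:14633841-14633861 on the plus strand, also in exon 13 of 14, and has 3. The ARF10 site lies at chr2:12115741-12115761 on the plus strand, in exon 2 of 4, and has 2. The ARF16 site is at chr4:14704141-14704161 on the minus strand, and the ARF17 site at chr1:29274189-29274209 on the plus strand, with 3 and 1 unpaired positions. Unpaired here means without a Watson-Crick pair, and 1 such position in the ARF16 site and 1 in the ARF17 site form a G:U pair. No other ARF transcript had a miR167a-5p or miR160a-5p pairing with 5 or fewer unpaired positions. Among 27440 protein-coding genes, 7 had a miR167a-5p pairing with up to 4 unpaired positions, which is 0.0255%, and 3 had such a miR160a-5p pairing, which is 0.0109%. A pairing describes the letters and does not show that the transcript is cut.

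ARF levels ran over a wide range, and ARF2 was the most abundant in both groups. ARF2 (AT5G62000), a repressor that acts in the apical hook, had 107.4 FPKM with ethylene and 121.1 FPKM in air, which placed its mean level at percentile 92.3 of tested rows. ARF19 (AT1G19220), an activator of lateral root formation, had the lowest level, with 2.21 FPKM with ethylene and 2.63 FPKM in air, at percentile 16.9. ARF2 was thus 48.5 times ARF19 on the FPKM scale with ethylene and 45.9 times in air. The median of all tested rows was 12.5 FPKM with ethylene and 13.0 FPKM in air.

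The order from high to low with ethylene was ARF2, ARF6, ARF1, ARF3, ARF8, ARF4, ARF10, ARF7, ARF5 and ARF19. In air the places of ARF8 and ARF4 were exchanged, and so were those of ARF10 and ARF7. With 1 value per group, which neighbours in this order differ beyond the spread between libraries could not be judged. In whole seedlings a lower level may mean fewer cells that express a gene or less RNA per cell, and these cannot be told apart.

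**Figure D1:**
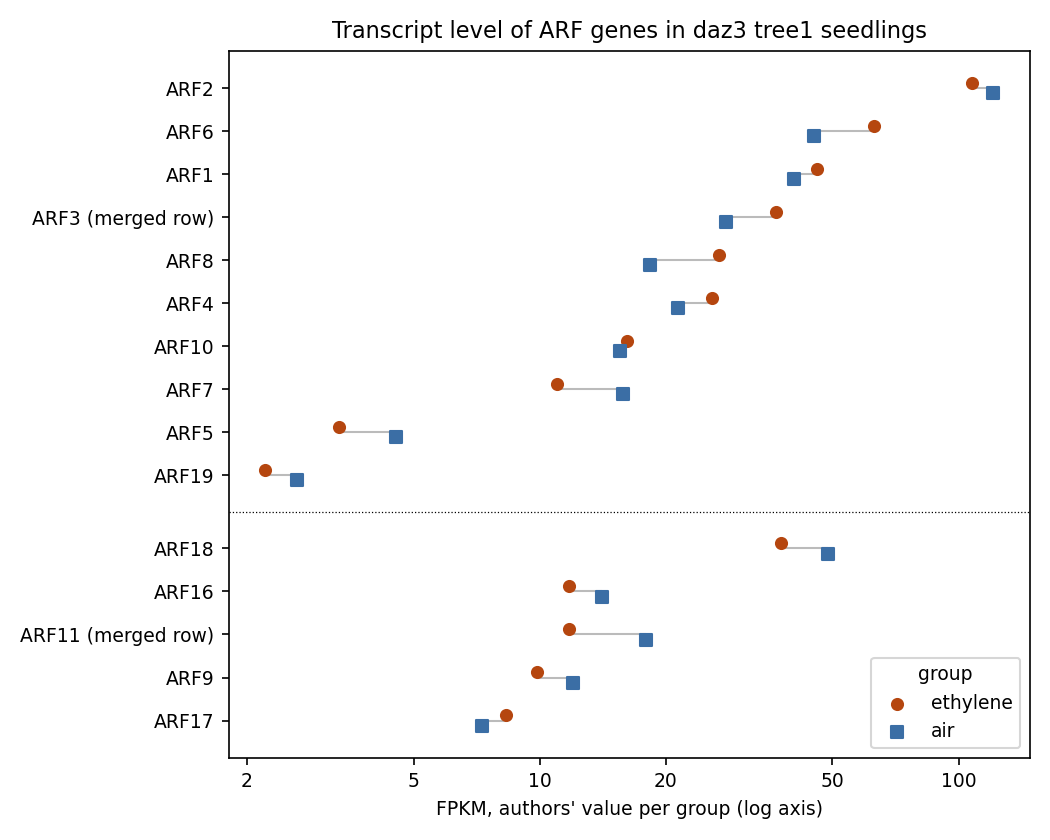
FPKM per group on a log axis for the 10 ARF genes (above the dotted line) and 5 further ARF genes with values (below it), with ethylene as circles and air as squares. ARF2 is highest at 107.4 and 121.1 FPKM, and ARF6 and ARF8 lie further right with ethylene than in air.

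ARF6 and ARF8 were called higher with ethylene on the deposited scale. Both are activators that promote hypocotyl growth and the maturation of flowers, with overlapping functions. ARF6 (AT1G30330, chr1:10685822-10690988, minus strand) had 62.8 FPKM with ethylene and 45.2 FPKM in air, a 1.39-fold difference. Its log2 fold change was 0.47, with a 95% interval from 0.20 to 0.75 implied by the p in the authors' deposited table (p = 0.0008, Cuffdiff, Benjamini-Hochberg adjusted p = 0.0188 over 18696 tested rows). ARF8 (AT5G37020, chr5:14629453-14634454, plus strand) had 26.8 FPKM with ethylene and 18.3 FPKM in air, a 1.46-fold difference. Its log2 fold change was 0.55, with an implied interval from 0.22 to 0.88 (the authors' deposited table, Cuffdiff p = 0.00125, adjusted p = 0.0259). The last p that passed the adjustment was 0.00315 in the authors' deposited table, so both genes lay inside the threshold without being at the smallest p, 5e-05.

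Both calls depend on the scaling. A set of 12 housekeeping genes, used as reference genes, lay at a median of 0.27 on the log2 scale of ethylene over air, against -0.02 for all tested rows, and 11 of the 12 had a higher value with ethylene. When that shift was subtracted, the median of all rows was -0.29, ARF6 stood at 0.20 and ARF8 at 0.28, and neither was called (from the authors' Cuffdiff p rescaled with the implied error, adjusted p = 0.35 and 0.274). Subtraction of a trend with transcript GC content left ARF6 at 0.41 and ARF8 at 0.51. With the authors' Cuffdiff p rescaled here, ARF6 lay just outside the threshold (adjusted p = 0.0615) and ARF8 just inside it (0.048). On each of these scales both log2 fold changes stayed above 0. Of the 11 reference genes that stood in 1 row, EF1A was itself called higher (log2 fold change 0.41, the authors' deposited table, Cuffdiff, adjusted p = 0.0417). Log2 fold changes of these 11 ran from 0.07 for ACT2 to 0.56 for UBC21 on the deposited scale. That range holds the values of both ARF6 and ARF8. At an unadjusted p under 0.05 in the authors' deposited table there were 4 of these 11, against 18.8% of all tested rows.

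Of the 10 members, 2 were called higher and 0 lower, and 8 were not called. Across all tested rows 2.17% were called higher, 4.18% lower and 6.34% in either direction. At an unadjusted p under 0.05, the members past the threshold in the authors' deposited table were the same 2, against 18.8% of all tested rows. The median log2 fold change of the 9 members in rows of their own was 0.05, or 0.12 with the merged ARF3 row, against -0.02 for all tested rows. Among the 393 rows called higher with values above 0 in both groups the median change was 1.60-fold, and 90.8% of them had a larger fold than ARF6 and 73.5% a larger fold than ARF8.

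The other activators had lower values with ethylene and were not called. ARF7 (AT5G20730), which acts in phototropism and root branching, had 11.03 FPKM with ethylene and 15.8 FPKM in air. Its log2 fold change was -0.52, which is nearly as far from 0 as that of ARF8, but its implied interval ran from -1.36 to 0.32 (the authors' deposited table, Cuffdiff, adjusted p = 0.553). The implied standard error of ARF7, 0.43, was the largest among the members, against 0.14 for ARF6 and a median of 0.22 over tested rows with at least 5 FPKM. ARF5 (AT1G19850), needed for the embryonic root and for veins, had 3.32 FPKM with ethylene and 4.55 FPKM in air, with a log2 fold change of -0.46 (interval -0.99 to 0.08). ARF19, the closest relative of ARF7, had a log2 fold change of -0.25 (interval -0.85 to 0.35). Thus 2 activators were called higher and the other 3 of the 5 had intervals that hold 0.

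The 4 repressor members in rows of their own had intervals that hold 0, and none was called. ARF1 (AT1G59750), which acts with ARF2 in senescence and the shedding of floral organs, had 46.0 FPKM with ethylene and 40.5 FPKM in air, and its log2 fold change was 0.18 (interval -0.18 to 0.54). For ARF2 the log2 fold change was -0.17 (interval -0.45 to 0.10). Scaled to the reference genes, ARF2 stood at -0.44 and was called lower (from the authors' Cuffdiff p after rescaling, adjusted p = 0.017), and ARF1 turned to -0.087. ARF4 (AT5G60450), which acts with ARF3 in setting the lower side of leaves, had 25.8 FPKM with ethylene and 21.3 FPKM in air (log2 fold change 0.27, interval -0.05 to 0.59). ARF10 (AT2G28350), which acts in germination and the root cap, had 16.2 FPKM with ethylene and 15.6 FPKM in air (0.05, interval -0.33 to 0.44), and its sign turned under the reference and GC scalings.

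ARF3 (AT2G33860) lacks the domain with which other ARFs bind Aux/IAA proteins. Its merged row had 36.6 FPKM with ethylene and 27.8 FPKM in air, with a log2 fold change of 0.39 and an interval from -0.06 to 0.85 (the authors' deposited table, Cuffdiff, adjusted p = 0.358). AT2G33855 lies directly beside ARF3 on the same strand in TAIR10.1, and the share of the row that belongs to each gene cannot be told apart. On the deposited scale, the implied interval of 9 of the 10 members lay within a 2-fold change in either direction, and ARF7 was the exception. The interval of ARF5 came close to that limit, with a lower end at 0.502-fold. If the p-values measure technical spread, these intervals are too narrow.

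**Figure D2:**
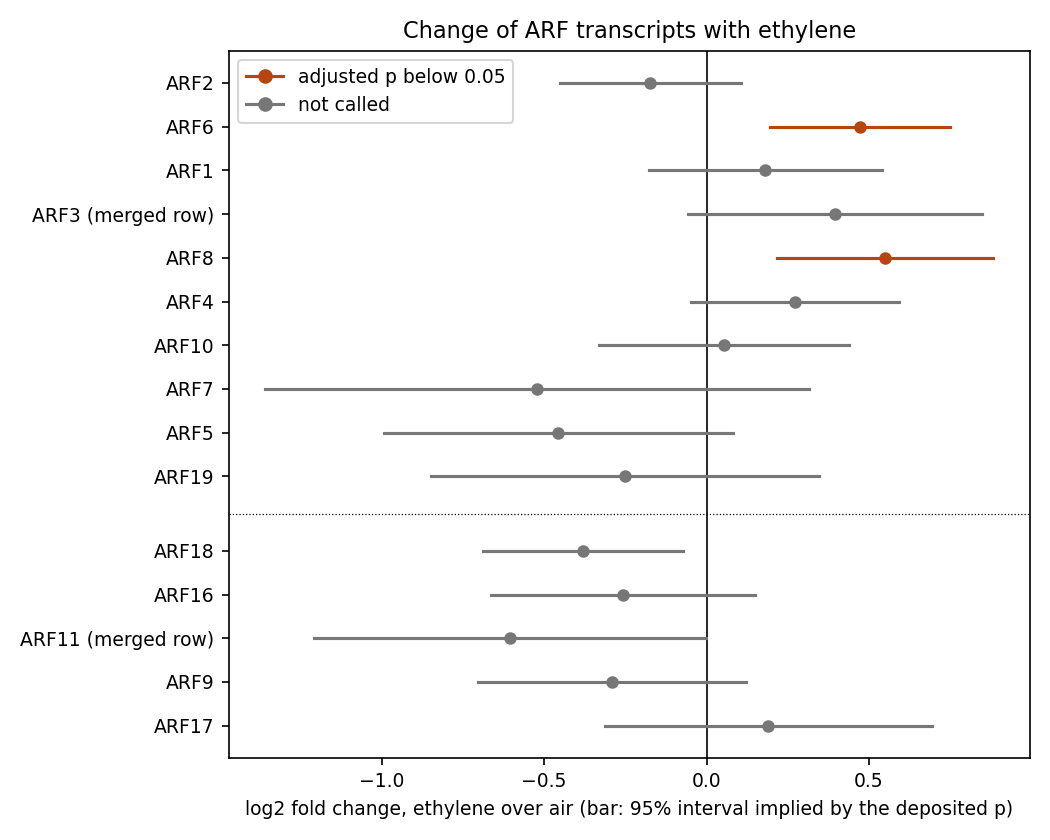
Log2 fold change of ethylene over air for the 10 ARF genes (above the dotted line) and 5 further ARF genes (below it), with bars for the 95% interval implied by the deposited p. The bars of ARF6 (0.20 to 0.75) and ARF8 (0.22 to 0.88) lie above 0 and are the called ones, and ARF7 has the widest bar.

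**Figure D3:**
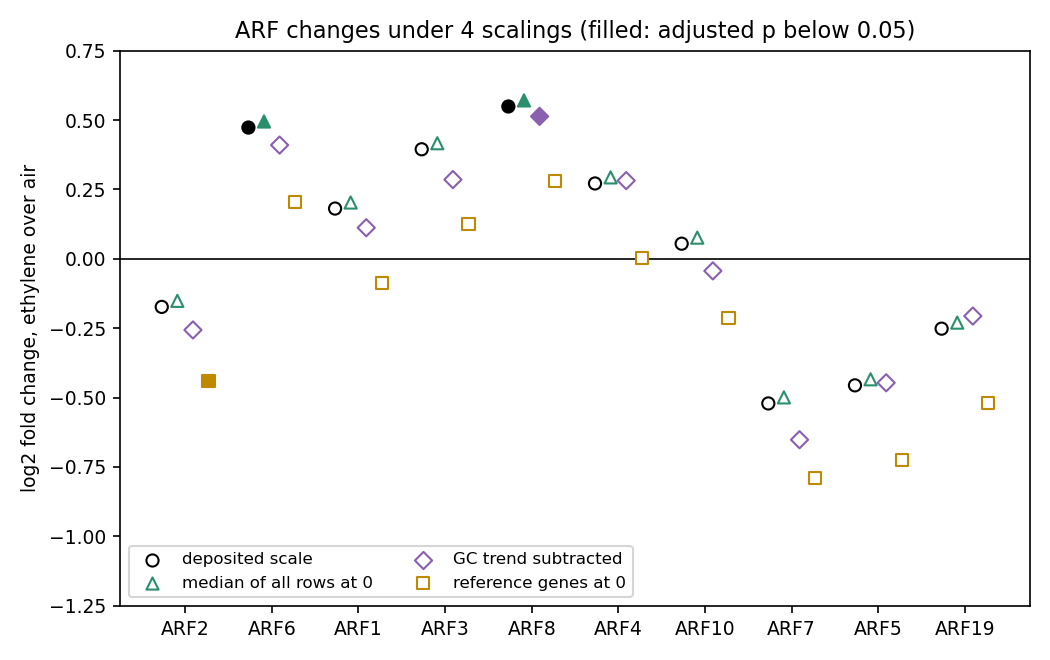
Log2 fold change of the 10 members on the deposited scale and under 3 rescalings, with filled symbols where the adjusted p is below 0.05. ARF6 and ARF8 are filled on the deposited scale and open when the reference genes are set to 0, where ARF2 is filled at -0.44.

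Among the 13 further ARF genes, 5 had values in both groups. None of these was called by the adjusted Cuffdiff p, against 6.34% of all tested rows. ARF18 and the merged row of ARF11 had an unadjusted p under 0.05 in the authors' deposited table, against 18.8% of all tested rows. With so few genes these counts cannot be set apart from the background. ARF18 had 37.6 FPKM with ethylene and 48.9 FPKM in air, a level close to that of ARF1, with a log2 fold change of -0.38 and an interval from -0.69 to -0.07 (the authors' deposited table, Cuffdiff, adjusted p = 0.138). ARF9 had 9.83 FPKM with ethylene and 12.03 FPKM in air. The miR160 targets ARF16 and ARF17 had log2 fold changes of -0.26 and 0.19, and neither was called. ARF11, in a row merged with AT2G46535, had 11.8 FPKM with ethylene and 17.9 FPKM in air (log2 fold change -0.61, the authors' deposited table, Cuffdiff, adjusted p = 0.263). ARF20 was listed at 0.157 FPKM with ethylene and at 0 in air. The other 7, ARF12 to ARF15 and ARF21 to ARF23, were listed at 0 in both groups. These 8 are close relatives on chromosome 1, so reads may be shared between them and their values are uncertain.

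On the deposited scale, the 13 ARF rows of 1 locus with values in both groups summed to nearly the same level in each. ARF6 and ARF8 held a larger share of this sum with ethylene. The sum was 368.8 FPKM with ethylene and 367.3 FPKM in air. Scaled to the reference genes, each ethylene sum would lie lower against air by 0.27 on the log2 scale, while shares would not change. ARF6 held 17.0% of it with ethylene and 12.3% in air, and ARF8 held 7.26% with ethylene and 4.98% in air. ARF2 held 29.1% with ethylene and 32.96% in air. The 5 activators summed to 106.1 FPKM with ethylene and 86.5 FPKM in air, and 8 repressors with rows of 1 locus to 262.7 FPKM with ethylene and 280.8 FPKM in air. The ratio of activator to repressor sums was 0.404 with ethylene and 0.308 in air. Within the activator sum, ARF6 and ARF8 together had 89.5 FPKM with ethylene and 63.5 FPKM in air. ARF5, ARF7 and ARF19 each had a lower value with ethylene, with intervals that hold 0. Whether the activators moved as a class was not tested. The merged rows of ARF3, higher with ethylene, and ARF11, lower with ethylene, are in neither sum. These sums have no error of their own and were not tested, and proteins were not measured.

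For the small RNA arm that acts on ARF transcripts, 10 genes were tested by the adjusted Cuffdiff p. Of these, 0 were called, against 6.34% of all tested rows, and 1 had an unadjusted p under 0.05 in the authors' deposited table, against 18.8%. With so few genes these counts are near the background, and the list median was 0.06 on the log2 scale. The precursor gene MIR167A had 3.25 FPKM with ethylene and 5.79 FPKM in air, with a log2 fold change of -0.83 and an interval from -2.04 to 0.37. The interval is wide, and the level of a precursor is not that of the mature miRNA. MIR160A had 1.76 FPKM with ethylene and 1.53 FPKM in air, and MIR160C had 3.63 FPKM with ethylene and 3.44 FPKM in air. MIR160B and MIR167C were listed at 0 in both groups, and MIR167B and MIR167D were not analysed here. TAS3, the source of short RNAs against ARF2, ARF3 and ARF4, had 46.5 FPKM with ethylene and 44.5 FPKM in air. AGO1, the slicer that carries most miRNAs, had 85.1 FPKM with ethylene and 69.5 FPKM in air (log2 fold change 0.29, the authors' deposited table, Cuffdiff, adjusted p = 0.246). Of the 5 other genes with a miR167a-5p pairing as close as that of ARF6, AT2G38920 was not tested, and none of the rest was called. With so few genes this is near the 6.34% of all tested rows. Among these 5 genes, ABA4, of the carotenoid pathway, had 31.1 FPKM with ethylene and 25.5 FPKM in air. The rows of AT3G06868 and AT5G64830 stood at -0.01 and -0.28 on the log2 scale, the merged row that holds TSC10A stood at 0.10, and AT2G38920 was listed at 0 in both groups.

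Among genes for partners of ARF proteins, the calls were of Aux/IAA genes. Of 25 tested Aux/IAA genes, which encode the repressors that bind ARFs, 5 were called lower and 0 higher, against 4.18% of all tested rows lower, and the list median was -0.09. At an unadjusted p under 0.05 in the authors' deposited table (Cuffdiff) there were 12 of 25, against 18.8% of all tested rows. Of these, IAA13 and IAA17 had higher values with ethylene and the rest had lower values. IAA17 had 560.7 FPKM with ethylene and 440.5 FPKM in air, and IAA13 had 58.7 FPKM with ethylene and 44.4 FPKM in air. IAA6 fell to 6.71 FPKM with ethylene, against 22.1 FPKM in air, and IAA29 to 3.57 FPKM with ethylene, against 11.5 FPKM in air. IAA26 fell to 34.7 FPKM with ethylene, against 66.7 FPKM in air. IAA2 and IAA4 fell by 1.01 and 1.14 on the log2 scale. Scaled to the reference genes, 10 Aux/IAA genes were called lower, and so were 15.7% of all tested rows. Of 6 tested TIR1/AFB receptor genes, 0 were called in either direction, and 0 had an unadjusted p under 0.05 in the authors' deposited table. TIR1 had 96.5 FPKM with ethylene and 85.1 FPKM in air, and AFB2 had 65.5 FPKM with ethylene and 62.2 FPKM in air. Of 5 TOPLESS family genes, 0 were called, and 1 had an unadjusted p under 0.05 in the authors' deposited table. Against 6.34% of all tested rows called and 18.8% at an unadjusted p under 0.05, so few genes in either list leave these counts near the background. TPL had 92.0 FPKM with ethylene and 73.1 FPKM in air, and TPR1 had 35.3 FPKM with ethylene and 29.4 FPKM in air.

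Among known ARF targets, HAT2 and TMO7 were called lower. Of 17 listed, 13 were tested, and 0 were called higher and 2 lower, against 2.17% of all tested rows higher and 4.18% lower. At an unadjusted p under 0.05 in the authors' deposited table (Cuffdiff) there were 4 of 13, against 18.8% of all tested rows. These 4 were HAT2, TMO7 and TMO5, lower with ethylene, and ATHB8, higher with ethylene. TMO5 had 7.88 FPKM with ethylene and 12.3 FPKM in air, and ATHB8 had 9.61 FPKM with ethylene and 6.58 FPKM in air. HAT2, an auxin-induced homeodomain factor, fell to 21.7 FPKM with ethylene, against 37.9 FPKM in air, a log2 fold change of -0.81. TMO7, a target of ARF5 in the embryo, was called lower, and it was listed at 0 with ethylene and at 2.55 FPKM in air. A listed 0 may stand for an estimate that failed, so no fold is given. The list median of 0.02 is over the 12 tested targets with values above 0 in both groups. When scaled to the reference genes, 4 targets were called lower, against 15.7% of all tested rows.

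**Figure D4:**
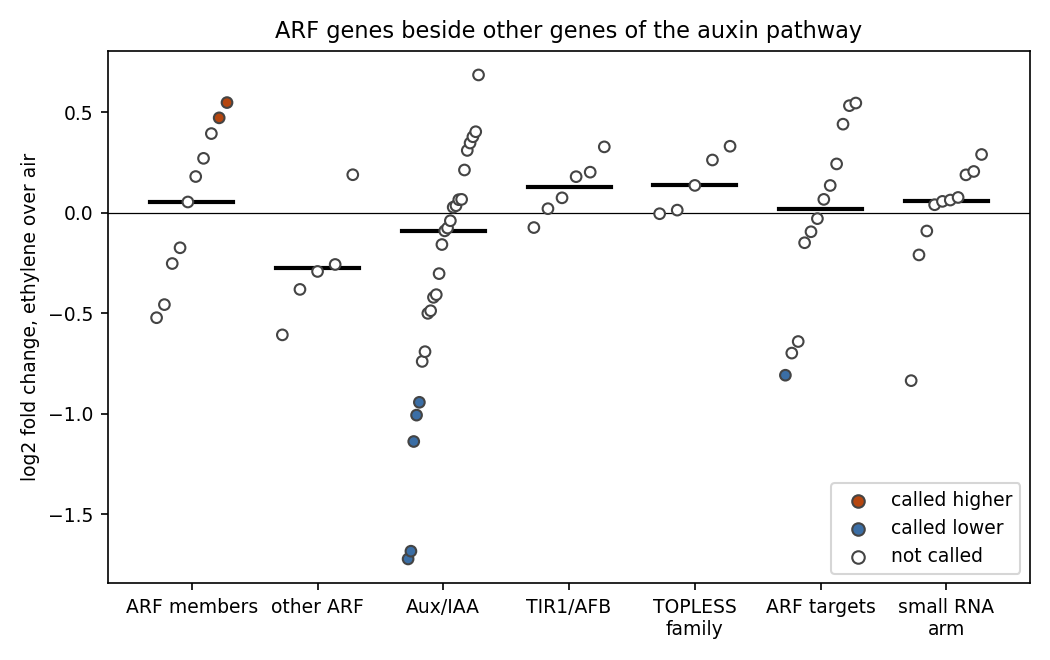
Log2 fold change of ethylene over air for each tested gene of the ARF members, 13 further ARF genes and 5 other lists of the auxin pathway, with black lines for the median over rows of 1 locus. The called points are ARF6 and ARF8 above 0, and 5 Aux/IAA genes and HAT2 below 0, and TMO7 is left out because it is listed at 0 with ethylene.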

How the data were processed

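The submitters' processing notes name TAIR10 as genome, TopHat2 version 2.0.9 and Cuffdiff version 2.0.1. Per the labels' protocols, Trizol was used for RNA and a NEB kit for library preparation. Not given in the sources used here were their settings, the library scaling and the use of strand. The values deposited by the authors, 1 per group, were taken as FPKM because Cuffdiff is named. No adjustment is named for the deposited p-value, per the file headers, and it was taken as unadjusted. The deposited log2 fold change, with 1186 cells of error text, was used to check direction only. It was recomputed as ethylene over air, and 19947 of 19948 comparable rows were equal within 0.001.

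Deposited p-values of named rows with p below 1 were adjusted by Benjamini-Hochberg (18696 rows, threshold 0.05). Rows without a gene name, 243 in all, held 88.9% of the ethylene column sum and 86.0% of the air sum and were left out. A standard error was implied from each p under a normal approximation, giving 95% intervals for rows above the smallest p. List counts and medians use rows of 1 locus. The count of the 10 members includes the merged ARF3 row. The reference gene RHIP1, in 2 rows, entered as the ratio of its sums. GC content, sites and names, from the longest transcript of each gene, came from RefSeq TAIR10.1, and 99.4% of tested rows had a GC value. The table gives no coordinates. The calculation was tested on simulated data drawn with the implied errors, which cannot check the normal approximation itself.

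The members and lists were chosen with earlier results of these data known. The text names all members, every further ARF gene with values, called members of each other list or otherwise its 2 most abundant, small RNA precursors, tissue markers and genes with a close miR167a-5p pairing. This last set was chosen after its sequences were seen. Also named are TMO5, ATHB8, IAA13 and IAA17, uncalled genes with an unadjusted Cuffdiff p under 0.05. They were chosen after their values were seen, to give directions. No likeness of pattern was ranked, since each gene has 2 values. Tables were handled with pandas 2.3.3 and numpy 2.4.6 in Python 3.11.15, trends and tests with statsmodels 0.14.6 and scipy 1.17.1, and figures with matplotlib 3.10.9.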

Additional observations from a re-analysis of the deposited data

How the results depend on the processing

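At an adjusted threshold of 0.01, ARF6 (log2 fold change 0.47) and ARF8 (0.55) were not called, leaving 0 members higher. Scaled to the reference genes, ARF6 (0.20) and ARF8 (0.28) lost their calls, ARF2 (-0.44) was called lower, and ARF1 and ARF10 turned to -0.087 and -0.21. That scaling left 0 members higher and 1 lower, with 2 further ARF genes, 10 Aux/IAA genes and 4 targets lower. Over all rows it gave 105 higher and 2928 lower, against 405 and 781. With the GC trend subtracted, ARF6 (0.41) lost its call, ARF10 stood at -0.043, 1 member was higher and 1 Aux/IAA gene was higher. The cause was not tested. Thresholds of 0.01 and 0.1 gave 190 and 631 rows higher, and 0.01 gave 409 lower. A threshold of 0.1, single-locus rows, a minimum of 1 FPKM and centring on the median kept the call of every member tested. ARF3 has no value among single-locus rows. Of these settings, only centring changes the log2 fold change, by 0.02, and it kept every direction. Pseudocounts of 1 and 0.1 FPKM change only the size of the log2 fold change, so they could alter neither direction nor call. No paired analysis was possible because the table holds 1 value per group, and for the same reason no library could be left out.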
